A study of Oryza sativa with 8 samples.

Results

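The WRKY transcription factor genes of rice (Oryza sativa) were followed here across 4 comparisons of DNA methylation between plants raised from parent seeds of low N content (LN) and plants raised from parent seeds of high N content (HN). The members were a given list of 52 MSU loci of the family, looked up by identifier in the gene tables of the study, of which 2, LOC_Os11g02480 and LOC_Os05g40080, had been picked by the study from its methylation results. Of the 52 loci, 6 were in at least 1 table and 46 were in none, while the tables together held 19182 loci. Whole-genome bisulfite sequencing was performed on 8 libraries of DNA from leaves of mature plants (labelled shoot). Ox1 is a single transgenic line that carries added OsNAR2.1, a partner protein of nitrate transporters, under its own promoter, and WYG7 (Wuyungeng 7) is its wild type. The libraries were Ox1-LN, Ox1-HN, WYG7-LN and WYG7-HN from the NN field, which received no N fertilizer, and the same 4 from the HN field, fertilized with 300 kg N/ha. There was 1 library for each condition, so no difference has a replicate error and no test across samples was possible.

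WRKY proteins are plant transcription factors named after a run of conserved amino acids in the domain that binds DNA. Most of them recognise a short promoter element called the W-box, and the family is best known for switching defence genes on and off after pathogen attack, for salicylic acid signalling and for leaf senescence. Many WRKY genes are themselves induced by stress. The study chose members of the family (which it writes as WAKY) because of a link to phosphorus accumulation in rice. Methylation of cytosine in plants occurs in the CG, CHG and CHH contexts, and dense methylation of a promoter is often associated with silencing.

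A differentially methylated region (DMR) is a stretch at which the authors called a difference between LN and HN plants of the same line and field, and a gene with a DMR in its body or in the 1 kb before it is a differentially methylated gene (DMG). The lists do not name the library that served as reference. From the study's text HN was taken as the reference, so that a hyper-DMR is more methylated in LN plants and a hypo-DMR less. Every direction given here rests on this reading. The study is not uniform on directions, since a section heading states those of Ox1 opposite to the numbers in that section. The deposited lists give positions and directions without levels, coverage or context, so the depth at each DMR and the size of each difference are not known beyond the minimum coverage per cytosine and the minimum difference in level that the study's methods set for a call. A locus in no table has no listed DMR, which does not show equal methylation, and it cannot be told apart from a locus that was too thinly covered or not in the annotation used. Positions are those of IRGSP-1.0, with both ends included. The tables give no strand, so the ends of a gene interval are called lower and upper by position, and whether a DMR lies in promoter, exon or intron was not determined.

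No WRKY locus was listed for Ox1 in the NN field, and few were listed elsewhere. As a background, most MSU identifiers run along each chromosome in steps of 10, and up to the highest number listed on each chromosome there are 61923 such numbers. Of the 19182 listed loci, 18124 have such a number, and the other 1058 have numbers between the steps and are left out of the background shares. The numbers include transposon genes, and some may be unassigned, so among real loci with a number in steps of 10 the share listed is at least the value given. For Ox1 in the NN field 0 of the 52 WRKY loci were listed, beside 11.9% of all numbers. A count of 0 allows a share of up to 5.77%, taken as 3 of 52. This approximate limit covers counting error only, is not an exact interval and is no test against the 11.9%. For WYG7 in the NN field the authors' table held 4 (7.69%, beside 16.7% of all numbers), LOC_Os05g25770, LOC_Os05g40080, LOC_Os05g50610 and LOC_Os11g02480. For Ox1 in the HN field the table held 3 (5.77%, beside 16.1%), LOC_Os04g39570, LOC_Os05g40080 and LOC_Os11g02480. The table of WYG7 in the HN field held 2 (3.85%, beside 16.4%), LOC_Os11g02480 and LOC_Os11g29870.

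The share of WRKY loci listed was thus below the share of all locus numbers in each of the 4 comparisons. Over the comparisons together, 11.5% of the WRKY loci were listed in at least 1 table, beside 29.3% of all numbers. LOC_Os11g02480 and LOC_Os05g40080, picked from the DMGs, had to be listed. Without these 2, 4 of 50 loci (8.0%) were in at least 1 table. Loci of a family are not replicates of a condition, so no test of these differences was made, and the part of transposon genes in the background was not tested. Of the 19182 loci in any table, 40.9% were listed for Ox1 and 57.0% for WYG7 in the NN field, and 54.9% for Ox1 and 56.0% for WYG7 in the HN field, a background that holds no locus without a DMR. With DMRs of at least 200 bp alone, WYG7 kept 3 loci in the NN field, while in the HN field Ox1 kept 0 and WYG7 kept 1.

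**Figure D1:**
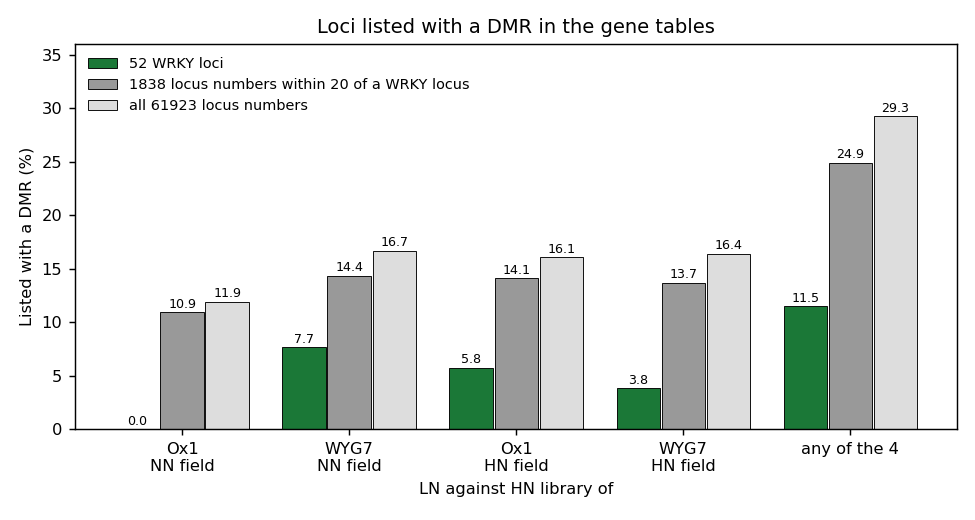
Share of loci listed with a DMR (%, y axis) in each LN against HN comparison and in any of the 4 (x axis), for the 52 WRKY loci, for the 1838 locus numbers within 20 numbers of a WRKY locus and for all 61923 locus numbers. The bar of the WRKY loci is the lowest in every group, at 0% for Ox1 in the NN field and at 11.5% for any of the 4.

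The loci that neighbour WRKY genes were listed more often than the WRKY genes themselves. Within 20 locus numbers on either side of the members lay 1838 other numbers, of which 458 (24.9%) were in at least 1 table. By comparison, 10.9% of these neighbours were listed for Ox1 and 14.4% for WYG7 in the NN field, and 14.1% for Ox1 and 13.7% for WYG7 in the HN field. The neighbourhoods ranged widely. Around LOC_Os04g21950, 22 of 40 neighbouring numbers were listed, and around LOC_Os05g09020 20 of 40, although neither locus was in a table. LOC_Os03g21710 and LOC_Os09g30400 each had 2 listed neighbours of 40. The median share of listed neighbours was 19.1% for the 6 listed members and 23.8% for the 46 others, with overlapping ranges of 12.5% to 37.5% for the listed members and 5.0% to 55.0% for the others.

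**Figure D2:**
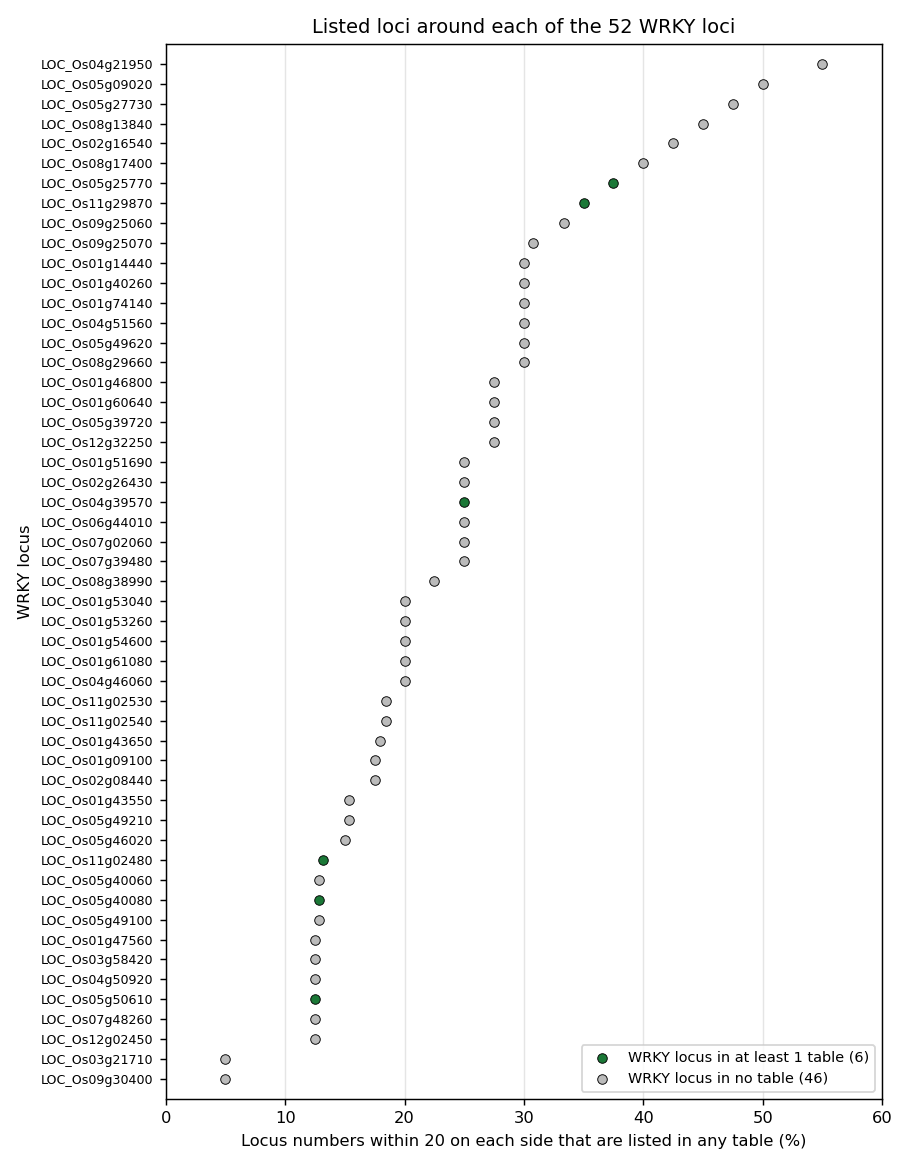
Share of locus numbers within 20 on each side that were listed in any table (%, x axis) for each of the 52 WRKY loci (y axis), with the 6 loci listed themselves in green and the 46 others in grey. The values run from 5.0% to 55.0%, and the 6 with the highest shares are all in no table.

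LOC_Os11g02480 was the member listed most often, in 3 of the 4 comparisons. The study gives it as OsWAKY46 and also as OsWAKY59 and measured it by qRT-PCR. It reports OsWAKY46 in the HN field among genes up-regulated by hypo-methylation and does not name OsWAKY59 among them. Expression was not part of the data used here. The locus had DMRs in both lines. The interval of LOC_Os11g02480 runs on chromosome 11 from 759587 to 764334 (4748 bp). Its 4 DMRs lay together in 605 bp, from 763470 to 764074, and the nearest was 260 bp from the upper end of the interval. WYG7 plants of the NN field showed a hyper-DMR of 247 bp there, from 763470 to 763716, and a hypo-DMR of 157 bp, from 763918 to 764074. Ox1 plants of the HN field showed a hypo-DMR of 118 bp, from 763524 to 763641. WYG7 plants of the HN field showed a hypo-DMR of 225 bp, from 763739 to 763963.

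At 1 stretch of LOC_Os11g02480 the direction was opposite in the line and field combinations. The hypo-DMR of Ox1 in the HN field lay wholly inside the hyper-DMR of WYG7 in the NN field, over all of its 118 bp. Next to it, the hypo-DMRs of WYG7 in the NN field and in the HN field shared 46 bp, or 29.3% of the shorter. The hyper-DMR of WYG7 in the NN field ended 22 bp before the hypo-DMR of WYG7 in the HN field began. Thus within WYG7 these 46 bp, from 763918 to 763963, were hypo in both fields, while the bases directly below them were in a hypo-DMR of the HN field alone and those directly above them in a hypo-DMR of the NN field alone. A further pair of hypo-DMRs of WYG7 lay below the interval, 618 bp away in the NN field and 553 bp away in the HN field, and shared 138 bp. For Ox1 in the NN field the nearest DMR lay 5041 bp above the interval and was hyper.

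LOC_Os05g40080, given as OsWAKY54 in the study and also measured by qRT-PCR, was listed in 2 comparisons with opposite directions. The study does not name OsWAKY54 among the genes up-regulated by hypo-methylation. Its interval on chromosome 5 from 23550611 to 23552716 (2106 bp) is the shortest among the 6. It had a hypo-DMR of 180 bp in WYG7 in the NN field, from 23551840 to 23552019, and a hyper-DMR of 115 bp at 23551789 to 23551903 in Ox1 in the HN field. These DMRs shared 64 bp, or 55.7% of the shorter, and spanned 231 bp together. Both lay in the upper part of the interval, with centres at 62.6% and 58.6% of its length from the lower end.

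Directly above LOC_Os05g40080, both comparisons had a long hyper-DMR. It was 547 bp long in WYG7 in the NN field, at 23553051 to 23553597, and began 334 bp after the interval. It was 908 bp long in Ox1 in the HN field, at 23552687 to 23553594, and shared 30 bp with the interval, below the 52 bp at which the tables list a gene. These shared 544 bp in the same direction, and the tables assign them to the next locus, LOC_Os05g40090. The directions of both comparisons were therefore opposite inside the interval, which includes promoter, and alike in this pair beside it. Farther above, WYG7 in the NN field had a hypo-DMR of 453 bp, 2906 bp from the interval, where Ox1 in the HN field had no DMR. No DMR lay within 20 kb of the interval for WYG7 in the HN field, and 1 hyper-DMR did for Ox1 in the NN field, 15468 bp away.

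**Figure D3:**
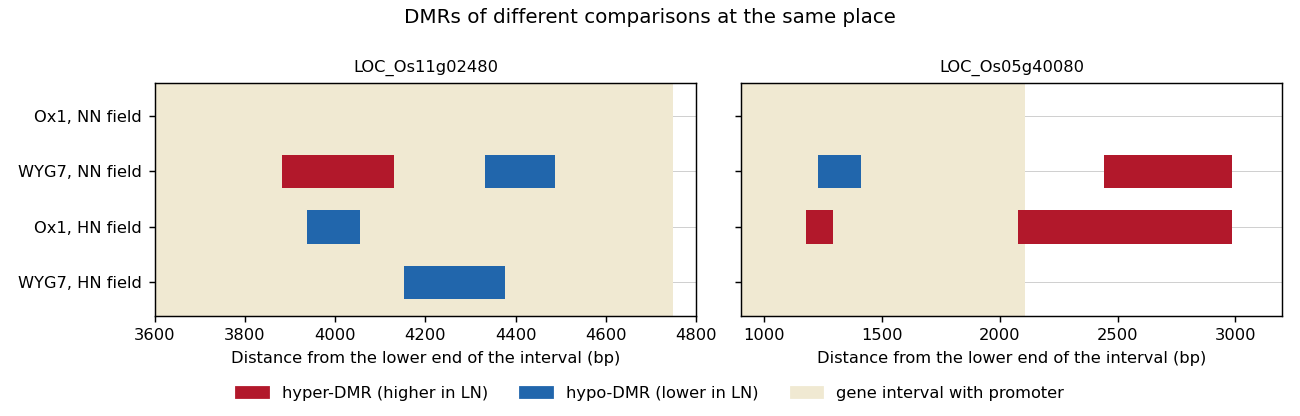
DMRs at LOC_Os11g02480 (left) and LOC_Os05g40080 (right) in the 4 comparisons (rows), by distance from the lower end of the gene interval in bp (x axis), with hyper-DMRs in red, hypo-DMRs in blue and the interval shaded. At LOC_Os11g02480 the hypo-DMR of Ox1 in the HN field sits inside the hyper-DMR of WYG7 in the NN field over 118 bp, and at LOC_Os05g40080 a hypo- and a hyper-DMR of the same comparisons share 64 bp.

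LOC_Os05g50610 had its DMRs in WYG7 in the NN field. The interval runs on chromosome 5 from 29009136 to 29014172 (5037 bp), and both DMRs were hyper, from 29010171 to 29010455 (285 bp) and from 29010639 to 29010951 (313 bp). They lay 1035 bp and 1503 bp from the lower end. In the other 3 comparisons no DMR was inside the interval, but each comparison had DMRs within 5 kb below it. In the NN field the closest were a hyper-DMR of Ox1, from 29008742 to 29009024 and 111 bp before the interval, and a hyper-DMR of WYG7 of 707 bp, from 29008279 to 29008985 and 150 bp before it. These shared 244 bp in the same direction. The same long hyper-DMR of WYG7 also covered 2 hypo-DMRs of Ox1 in the NN field, of 166 bp and 151 bp. In the HN field the closest DMRs were hypo in both lines, at 29007885 to 29008138 for Ox1 and at 29007800 to 29008052 for WYG7, and shared 168 bp.

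The stretch below LOC_Os05g50610 thus had DMRs in all 4 comparisons, all of which ended before the interval. It held 4 DMRs for Ox1 and 2 for WYG7 in the NN field, and 2 for Ox1 and 3 for WYG7 in the HN field. None of these DMRs was assigned to a listed locus.

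LOC_Os05g25770 had 1 DMR, in WYG7 in the NN field. Its interval runs on chromosome 5 from 14990579 to 14993800 (3222 bp). The DMR was hyper, ran from 14990388 to 14990818 and, with 431 bp, was the longest at a WRKY locus in any comparison. It crossed the lower end of the interval, with 240 bp inside. A hyper-DMR of 126 bp, from 14990262 to 14990387, ended at the base before it. Of the 6 DMRs of WYG7 in the NN field in the interval or within 20 kb of it, all 6 were hyper. In Ox1 in the HN field 4 hyper-DMRs and no hypo-DMR lay within 20 kb, the closest 1301 bp below the interval, and the gene itself was not listed. Over all DMRs, 64.5% were hyper in WYG7 in the NN field and 75.4% in Ox1 in the HN field. The other comparisons had 1 hyper- and 2 hypo-DMRs within 20 kb for Ox1 in the NN field, and 1 hypo-DMR for WYG7 in the HN field.

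LOC_Os04g39570 and LOC_Os11g29870 had 1 short DMR each. LOC_Os04g39570, the longest interval of the 6 with 8352 bp on chromosome 4 from 23579837 to 23588188, had a hyper-DMR of 199 bp at 23586865 to 23587063 in Ox1 plants of the HN field, and no other DMR within 20 kb in any comparison. LOC_Os11g29870, on chromosome 11 from 17351085 to 17355820 (4736 bp), had a hypo-DMR of 145 bp at 17355253 to 17355397 in WYG7 in the HN field, which is 423 bp from the upper end. Above LOC_Os11g29870, hyper-DMRs of Ox1 and of WYG7 in the HN field lay 1365 bp and 1457 bp away and shared 17 bp, and 3 hyper-DMRs of WYG7 in the NN field began 2932 bp away. A hypo-DMR of WYG7 in the HN field, from 17358021 to 17358217, lay 2200 bp above the interval. The tables assign these to LOC_Os11g29880.

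**Figure D4:**
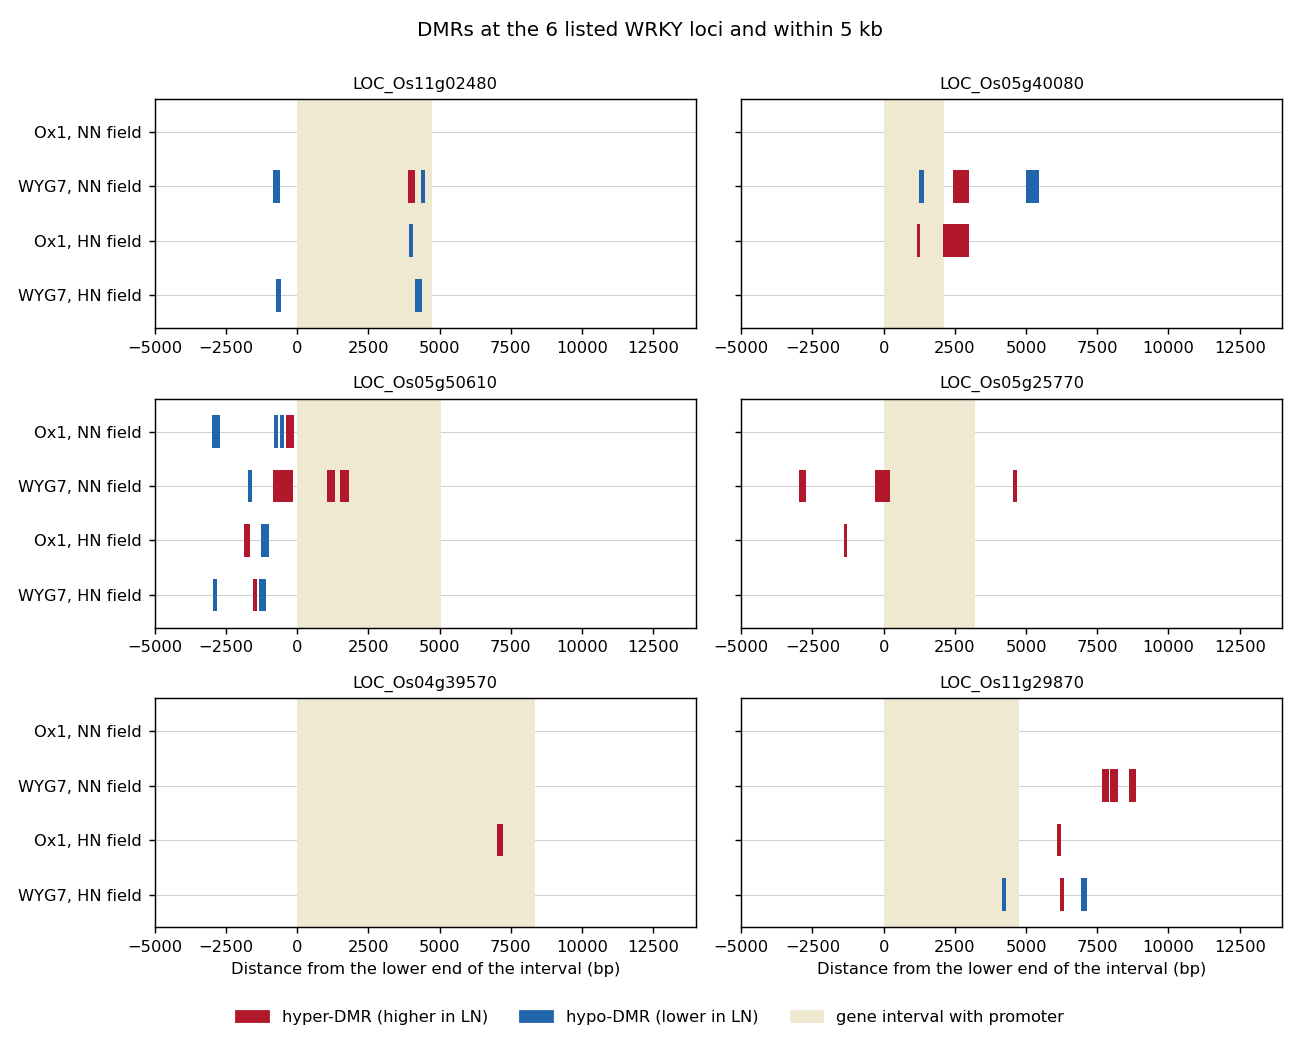
DMRs at the 6 listed WRKY loci and within 5 kb of them in the 4 comparisons (rows), by distance from the lower end of the gene interval in bp (x axis), with hyper-DMRs in red, hypo-DMRs in blue and the interval shaded. The 11 DMRs assigned to the genes cover small parts of the intervals, no DMR of Ox1 in the NN field lies inside an interval, and LOC_Os05g50610 has DMRs of all 4 comparisons below it.

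Over the 6 loci there were 11 DMRs, 6 hyper and 5 hypo. They were 115 bp to 431 bp long with a median of 199 bp, whereas the median over all DMRs of a comparison was between 225 bp and 237 bp. The comparisons differed in this. The median was 266 bp for WYG7 in the NN field, beside 237 bp over all DMRs. In the HN field it was 118 bp for Ox1 and 185 bp for WYG7, beside 227 bp and 229 bp. Together the 11 DMRs covered 1996 bp of the gene intervals, with bases shared between comparisons counted once. For WYG7 in the NN field 4 of 6 were hyper, a share of 66.7% (exact binomial 95% interval from 22.3% to 95.7%), and the share over all DMRs of the comparison was 64.5%. For Ox1 in the HN field 2 of 3 were hyper, 66.7% (9.43% to 99.2%), beside 75.4% over all DMRs. For WYG7 in the HN field 0 of 2 were hyper, which leaves a range up to 84.2%, beside 45.9% over all DMRs. For Ox1 in the NN field, where 33.7% of all DMRs were hyper, there was no DMR at a WRKY locus. The binomial intervals cover counting error alone, and with these numbers a departure from the share of all DMRs was not detectable. They also treat DMRs as independent, although the 6 of WYG7 in the NN field lay at 4 loci, so that interval may be too narrow.

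Most of the listed WRKY loci were in a single table. Of the 6, 4 (66.7%) were in 1 table, 1 in 2 tables, 1 in 3 tables and none in all 4. Of all 19182 listed loci, 40.1% were in 1 table, 26.4% in 2, 18.2% in 3 and 15.3% in 4. With only 6 loci, no difference from these shares can be read, and none was tested. Both WRKY loci that were in more than 1 table had DMRs at the same place in different comparisons, and both had such a pair of opposite direction. Both are the loci that the study picked from its DMGs, and the 4 listed members it did not pick were each in 1 table. Among all 11489 loci in more than 1 table, 83.3% had overlapping DMRs of different comparisons and 57.8% had an overlapping pair of opposite direction, so this is common among recurrent genes. The 4 comparisons use separate libraries.

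Some WRKY genes lie close to each other by locus number. On chromosome 11, LOC_Os11g02530 and LOC_Os11g02540 were in no table although LOC_Os11g02480, a few locus numbers before them, was in 3, and LOC_Os12g02450 on chromosome 12 was in no table either. On chromosome 5, LOC_Os05g40060 was in no table beside LOC_Os05g40080. Neither member of the pair LOC_Os09g25060 and LOC_Os09g25070 was listed, nor were LOC_Os01g43550 and LOC_Os01g43650, or LOC_Os05g49100 and LOC_Os05g49210. Chromosome 1 had the most members, 14, of which 0 were listed, whereas 24.4% of its locus numbers were in at least 1 table. Of 11 members on chromosome 5, 3 were listed, beside 32.0% of its locus numbers, of 4 on chromosome 11, 2, beside 33.3%, and of 5 on chromosome 4, 1, beside 31.8%.

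The 46 loci in no table were placed between the nearest listed loci by number. In the tables, 99.5% of the 19170 pairs of consecutive listed loci were in ascending order of position, so each of the 46 most likely lies in the gap between the listed loci below and above it. These were 43 distinct gaps of 6986 bp to 188702 bp with a median of 47795 bp. In 34 gaps at least 1 DMR of some comparison lay wholly between the listed genes, and in 9 there was none. A DMR that crossed the end of a listed gene into a gap was not counted. In total 191 DMRs lay in them, 40 for Ox1 and 49 for WYG7 in the NN field, and 53 for Ox1 and 49 for WYG7 in the HN field. In Ox1 in the NN field, which listed no WRKY locus, 22 gaps held a DMR. The gaps are free of listed genes by choice and hold other genes too, so these DMRs are given as surroundings of the WRKY genes.

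The 9 gaps with no DMR wholly inside were 6986 bp to 56282 bp long. LOC_Os04g21950 lay in a gap of 6986 bp, LOC_Os05g27730 in 9489 bp and LOC_Os05g09020 in 13426 bp, and in these cases the locus numbers directly below and above were both listed. The loci next to LOC_Os05g09020 were in 3 and 4 of the tables. No DMR of any comparison lay wholly inside the 13426 bp between them, and DMRs reaching in from the listed loci were not counted. The others were the gaps of LOC_Os01g14440, LOC_Os01g43650, LOC_Os01g74140, LOC_Os04g46060, LOC_Os05g39720 and LOC_Os07g39480, with 56282 bp at LOC_Os01g74140. The gap that LOC_Os11g02530 and LOC_Os11g02540 share, 94237 bp long, held 17 DMRs, 4 for Ox1 and 1 for WYG7 in the NN field and 5 for Ox1 and 7 for WYG7 in the HN field, and the gap of LOC_Os01g51690 held 18.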

How the data were processed

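Leaf DNA of 8 libraries was sequenced after bisulfite conversion. Per the labels, reads were aligned to IRGSP-1.0 with Bismark 0.9.0, and the authors called DMRs with SMART from 1 LN and 1 HN library of the same line and field. The deposited lists used here hold positions in bp, and the tables a gene interval with 1 kb of promoter and its MSU locus. No depth or level is in them. Which library was the reference is not written in them, and HN was taken as such from the study's text. The directions and the table entries are themselves the authors' comparisons, and no fold change or p-value was available in them.

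DMRs were assigned to a locus from an overlap of 52 bp, which gave exactly the loci of the 4 tables. Overlaps, shares and exact binomial (Clopper-Pearson) intervals were obtained with scipy 1.17.1, pandas 2.3.3 and numpy 2.4.6 under Python 3.11.15, and plots with matplotlib 3.10.9. The overlap function was tested on simulated data. The members and rules were chosen with earlier results of these data known. Named with all DMRs were the loci measured by qRT-PCR, the loci with any DMR and the neighbouring family members. The use of locus numbers, of gaps and of DMRs outside the intervals was chosen after seeing the data. Of the 52 loci, 0 matched the RefSeq table, which is of another assembly and holds no MSU identifiers, so gene names beyond the study's own and genes that act with WRKY factors are not given. No genome was used, so no sequence is shown. Each condition has 1 library, and no p-value was computed.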

Additional observations from a re-analysis of the deposited data

Results flagged for a closer look

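In a pair of WRKY loci, both picked by the study from its DMGs, DMRs of different comparisons had opposite directions at the same place. Of all 11489 loci in more than 1 table, 57.8% had such a pair, so this is common. At LOC_Os11g02480 a hyper-DMR of WYG7 in the NN field and a hypo-DMR of Ox1 in the HN field overlapped by 118 bp. At LOC_Os05g40080 a hypo-DMR of WYG7 in the NN field and a hyper-DMR of Ox1 in the HN field overlapped by 64 bp. Both pairs rest on short DMRs of Ox1 in the HN field, of 118 bp and 115 bp. With DMRs of at least 200 bp alone, neither pair remains. These comparisons differ in both line and field, each rests on 1 library against 1 library, and the difference between them was not tested.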

How the results depend on the processing

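Of 54 alternative values, 41 were equal to the value reported. An overlap of 1 bp in place of 52 bp or of 100 bp, merging DMRs of the same direction within 100 bp and leaving out loci whose interval overlaps another (0 of the 6) changed the numbers of loci and of DMRs by less than 1.5 times. Keeping DMRs of at least 200 bp changed most, which follows from the short DMRs. It left 0 loci and 0 DMRs for Ox1 in the HN field and 1 locus and 1 DMR for WYG7 in the HN field, and the hyper share for WYG7 in the NN field became 100%. No overlapping pair of DMRs of different comparisons remained inside a WRKY interval, since each such pair holds a DMR shorter than 200 bp. The number of loci with DMRs at the same place was 2 with an overlap of 1 bp and 2 with an overlap of 50% of the shorter DMR. It was also 2 with a distance of 500 bp, chosen after seeing the data. Only 2 WRKY loci were in more than 1 table, so a looser setting could not give a higher number. The share of listed neighbours was 27.1% within 5 and 25.5% within 50 locus numbers, both chosen after seeing the data. The alternative with gene bodies and promoters of a reference annotation was not run, since no annotation of the same build was used here. No paired analysis was possible because each condition has 1 library and no result comes from a test. Without coverage, what depth limits at a single DMR is unknown.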
